A study of Mus musculus with 9 samples.

Results

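The genes described here are the solute carrier transporters, the membrane proteins named Slc with a family number and a member number, that were expressed in 9 libraries of mouse B cells. Of 22178 genes in the expression table, 327 had a symbol of this form, and 124 of them (37.9%) were chosen by their measured level, a mean of at least 5 TPM over the 9 libraries. TPM is a scaled share of transcripts: a gene's part of the estimated transcripts of a library after division by transcript length. Of the other 203 carriers, 40 had a mean between 1 and 5 TPM, 163 were below 1 TPM, and 50 of these were listed at 0 in every library.

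Solute carriers move sugars, amino acids, ions, metals, nucleosides and cofactors across the plasma membrane and the membranes of organelles, and the Slc25 family does so mainly in the inner mitochondrial membrane. Most are secondary carriers: they exchange one solute for another or use the sodium, proton or potassium gradients that ATP-driven pumps set up. Lymphocytes depend on them for the glucose, glutamine, iron and nucleosides that growth after antigen receptor signals requires.

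The study compared 3 groups of 3 libraries, made from polyA RNA of B cells of mice on a backcrossed C57BL/6 background. B2 cells, the conventional follicular type, came from the spleen of mice whose strain label was VH12B1-8/Vk4. B1 cells, a self-renewing type that makes natural antibody, and B2B1 cells both came from the peritoneal cavity, and both had the strain label B1-8VH12/Vk4. In the B2B1 cells the B cell receptor (BCR) had been switched by induction about 30 days before the cells were isolated. Tissue and strain label therefore differ between B2 and the other groups along with cell type, and these cannot be told apart. The B1 and B2B1 groups share both labels. The sources used here do not give ages, sexes or cell sorting. Whether the 3 libraries of a group were made from different mice is not stated. Xist, the RNA of the inactive X chromosome, was near 0 in some B2 and B2B1 libraries and high in others (values below). The libraries of B2, and those of B2B1, were therefore not all made from the same mouse or pool. For B1, where Xist was high in all 3 libraries, this is not known. The p-values cover the spread among libraries alone, which may be technical in part or, in B1, in full. In bulk RNA, fewer cells of a type and less RNA per cell cannot be told apart.

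B cell markers (8 genes) summed to between 9449 and 11584 TPM in every library. Of the 8, 2 were called higher and 3 lower in B1 than in B2, 1 and 4 in B2B1 against B2, and 0 and 3 in B2B1 against B1. Macrophage markers (11 genes in the table) summed to 1.91 to 3.11 TPM in B2, 21.5 to 50.4 TPM in B1 and 269, 68.7 and 98.6 TPM in B2B1 libraries 1, 2 and 3. Their 5 tested genes were all higher in B2B1 than in B2. Other lists also moved with the groups. Dendritic cell markers summed to 18.3 to 20.2 TPM in B2 and 1.84 to 2.45 TPM in the peritoneal libraries, mostly Flt3, which was at 14.1 to 16.2 TPM in B2 and at most 0.194 TPM elsewhere. NK cell markers summed to 11.7 to 18.1 TPM in B2 and 0.739 to 1.53 TPM elsewhere, mostly Prf1, and Flt3, Zbtb46 and Prf1 were called lower in both comparisons with B2. T cell markers summed to 13.1 to 15.9 TPM in B2, 20.2 TPM or more in B2B1 and 25.9 to 32.2 TPM in B1, where Cd3g was at 6.12 to 10.7 TPM against at most 0.512 TPM in the other groups. Mast cell markers summed to 6.28, 1.26 and 5.47 TPM in B2B1 libraries 1, 2 and 3 and to at most 1.38 TPM elsewhere. Erythroid markers summed to 6.40 to 14.8 TPM in B2, 3.09 to 7.82 TPM in B2B1 and 3.68 to 18.1 TPM in B1, neutrophil markers to at most 2.41 TPM, and mesothelial and stromal markers to at most 0.932 TPM. Of these lists, Gata1, Retnlg, Siglech, Msln, Upk3b, Krt19 and Lum were at 0 in all 9 libraries. The part of such cells in the results was not tested. Xist lay between 0.355 and 0.461 TPM in 3 libraries (B2 library 2, B2B1 libraries 1 and 2) and was at 180 to 298 TPM in the other 6. B2 and B2B1 thus mix libraries with and without Xist, while all B1 libraries have it. The libraries sum to between 894515 and 943043 TPM over the listed genes. The sequencing depth behind the values is unknown, because TPM keeps none.

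Most members were expressed in all 3 groups. The group mean was at least 5 TPM in every group for 106 of the 124, and it was under 5 TPM in at least 1 group for the other 18, of which 7 were low in B2, 10 in B2B1 and 6 in B1. These 18 could join the list only through a group where they were high, so the counts given below describe the list and are no evidence about carriers in general. The nearest members inside the threshold were Slc41a2 at a mean of 5.19 TPM, Slc12a2 at 5.23 TPM and Slc2a8 at 5.26 TPM. The nearest outside were Slc15a1 at 4.40 TPM, Slc24a5 at 4.35 TPM and Slc26a6 at 4.34 TPM. Together the members made up 0.477% to 0.581% of the TPM in a library. Their sum was 5293 ± 75.1 TPM in B2, 4608 ± 91.8 TPM in B2B1 and 4790 ± 169 TPM in B1 (mean ± SD, n = 3 libraries each), with the mitochondrial carriers the largest class.

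**Figure D1:**
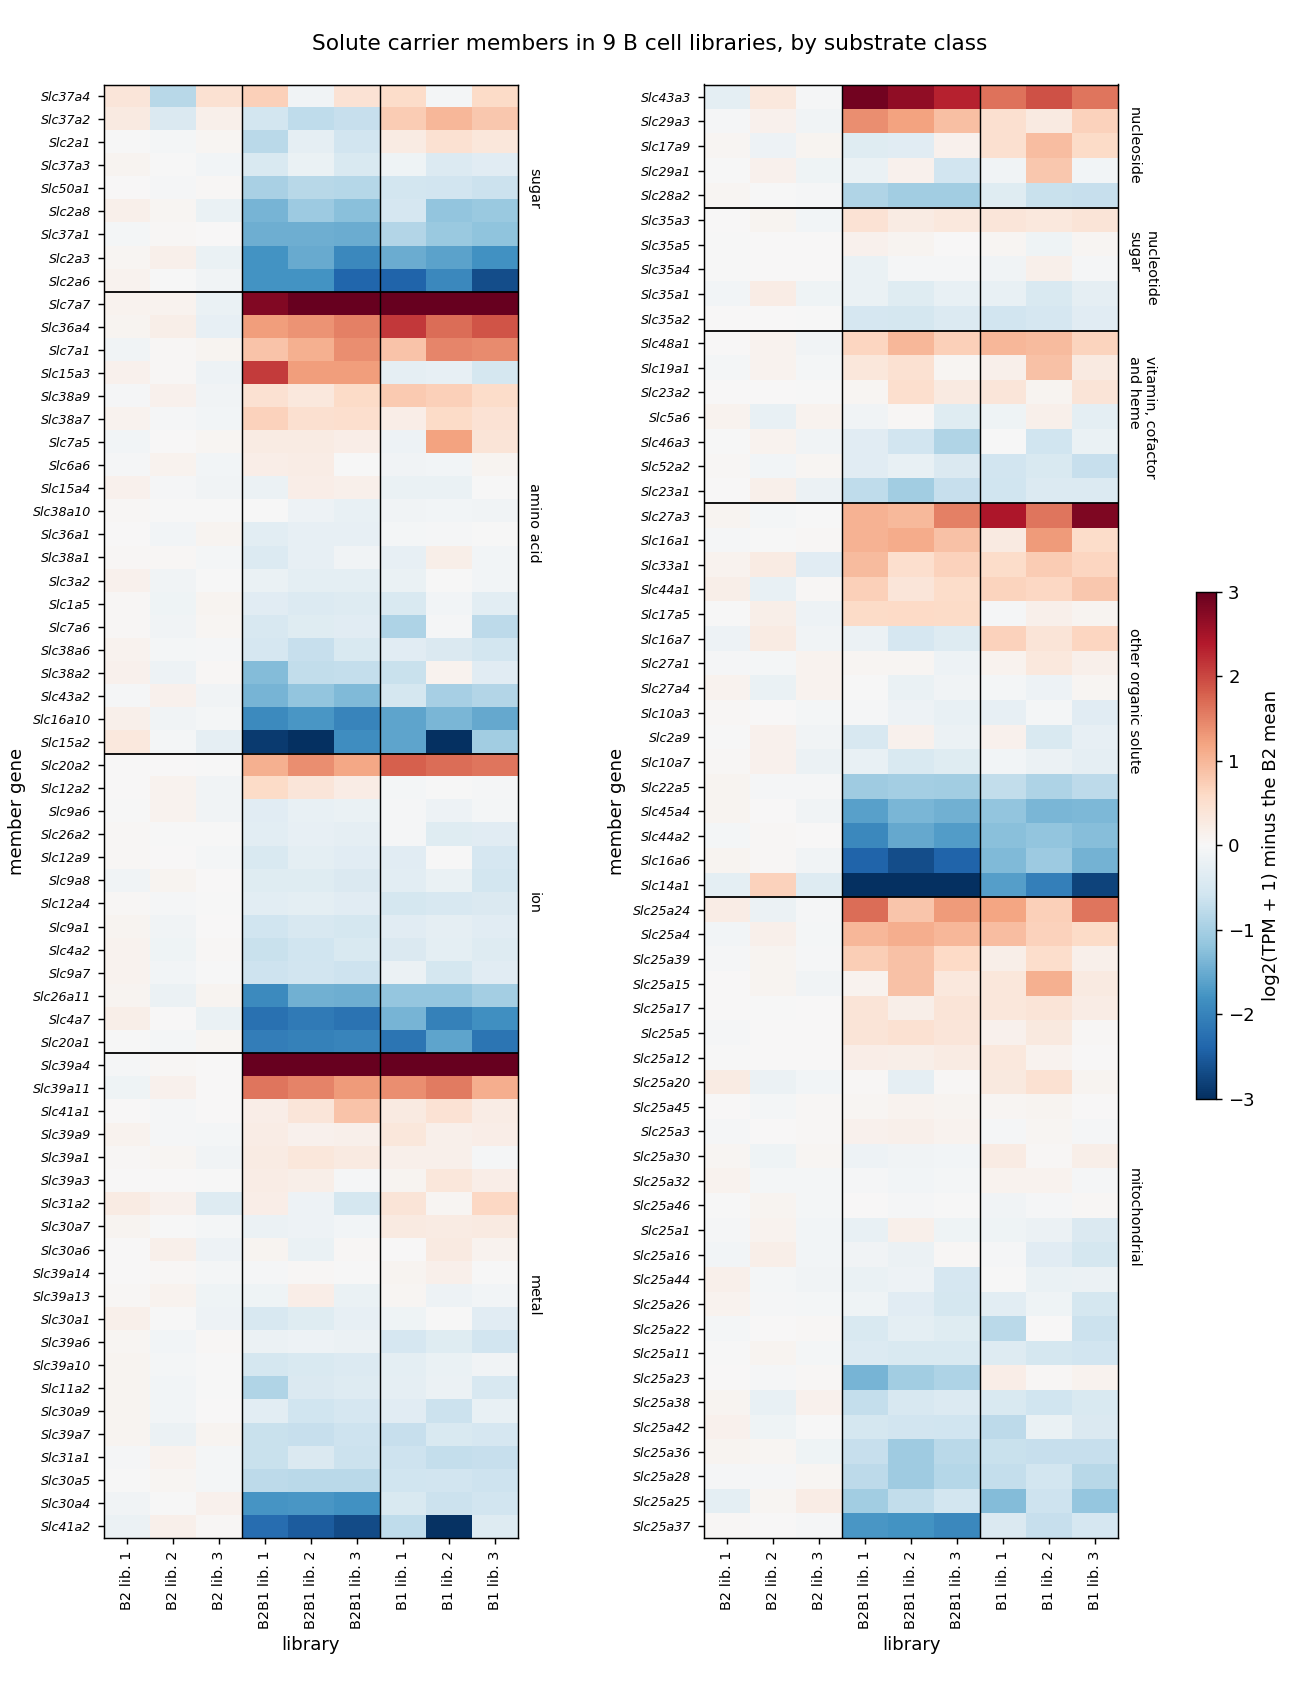
The heatmap shows 122 of the 124 members (rows, ordered within 9 substrate classes) in the 9 libraries (columns), coloured by log2(TPM + 1) minus the B2 mean, with the colour scale ending at 3 in either direction. Slc7a7 and Slc39a4 are the strongest red rows in B2B1 and in B1, and Slc15a2, Slc14a1 and Slc20a1 are among the strongest blue ones.

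Each gene was tested with limma on log2(TPM + 1), so fold changes understate the changes of low genes. A gene is said to be higher or lower when the Benjamini-Hochberg adjusted p over 11099 genes was under 0.05. Against B2, 25 members were higher in B1 and 44 were lower, which is 20.2% and 35.5% of the list. Among all genes tested 18% were higher and 33.9% lower, and among those with a mean of at least 5 TPM 18.1% and 36.2%. In B2B1 against B2, 29 members were higher and 56 lower (23.4% and 45.2%), beside 21% and 42% of all genes and 21% and 43.6% of those of at least 5 TPM. In B2B1 against B1, 10 were higher and 23 lower (8.06% and 18.5%), beside 6.93% and 12.1% of all genes and 7.05% and 12.7% of those of at least 5 TPM. In each comparison with B2 the members were near the background by this count. Their share lower in B2B1 than in B1 was above it, a difference that was not tested, and with Xist presence as a covariate the counts in B2B1 against B1 fell to 2 higher and 12 lower. The comparisons with B2 share the same B2 libraries.

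The split between higher and lower depends on the scaling. Over the tested genes, the log2 fold changes had a median of -0.14 in B1 against B2, -0.19 in B2B1 against B2 and -0.06 in B2B1 against B1, and that of the members was -0.12, -0.26 and -0.10. After rescaling by median-of-ratios size factors, which brought the medians of all genes to 0.01, 0.02 and 0.01, the members higher and lower numbered 40 and 31 in B1 against B2, 38 and 39 in B2B1 against B2, and 14 and 17 in B2B1 against B1. After quantile normalization they numbered 36 and 34, 34 and 44, and 11 and 17. Called members past 1 on the log2 scale numbered 9 higher and 13 lower in B1 against B2, together 17.7% of the members beside 11.8% of all genes of at least 5 TPM. They numbered 14 and 19 in B2B1 against B2 (26.6% beside 15.4%), and 2 and 7 in B2B1 against B1 (7.26% beside 3.03%). By size the share of the list was above that of all genes of at least 5 TPM in all 3 comparisons, a difference that was not tested. The counts include members among the 18 that joined the list only through a group where they were high. They therefore describe the list alone.

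**Figure D2:**
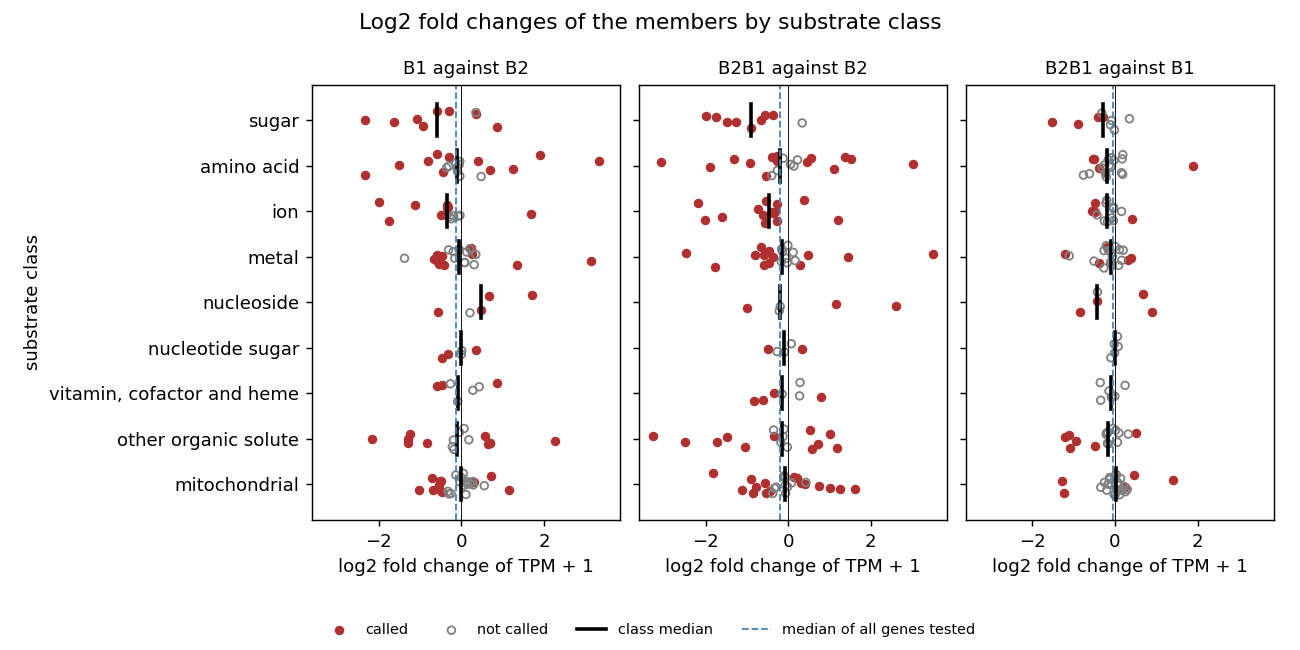
Each point is a member's log2 fold change of TPM + 1 in 1 of the 3 comparisons, by substrate class, filled where it was called; black bars are class medians and the dashed line is the median of all genes tested. The medians of the sugar and ion classes lie to the left of that line in all 3 comparisons, and the mitochondrial class is centred near 0.

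The sugar and sugar phosphate carriers were the class with the lowest median in both comparisons with B2. Of its 9 members (of 20 matching symbols), 2 were higher and 6 lower in B1 than in B2, none was higher and 8 were lower in B2B1 than in B2, and none was higher and 4 lower in B2B1 than in B1. For this class and those below, the shares of all genes tested are set beside the counts. They are 18% higher and 33.9% lower in B1 against B2, 21% and 42% in B2B1 against B2, and 6.93% and 12.1% in B2B1 against B1. The class medians of the log2 fold change were -0.59, -0.89 and -0.30, and they stayed negative under both other scalings. The summed level was 436 ± 16.1 TPM in B2, 337 ± 8.71 TPM in B1 and 233 ± 12.4 TPM in B2B1 (SD, n = 3).

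Slc2a1, the basal glucose transporter GLUT1 of the plasma membrane, and Slc37a2, a sugar phosphate exchanger of the endoplasmic reticulum, were the only members that were higher in B1 than in B2 and lower in B2B1 than in B2. Their promoters are shown because both genes put the B1 and B2B1 groups on opposite sides of B2. Each window runs from 250 bases before to 50 bases after the RefSeq transcript start in GRCm38.p6, 5′ to 3′ on the gene's strand, at chr4:119108495-119108794 (plus strand) for Slc2a1 and chr9:37255689-37255988 (minus strand) for Slc37a2. Capitals mark matches, on either strand, to the GC box (GGGCGG), the CCAAT box (CCAAT) and the TATA box (TATAAA).
Slc2a1: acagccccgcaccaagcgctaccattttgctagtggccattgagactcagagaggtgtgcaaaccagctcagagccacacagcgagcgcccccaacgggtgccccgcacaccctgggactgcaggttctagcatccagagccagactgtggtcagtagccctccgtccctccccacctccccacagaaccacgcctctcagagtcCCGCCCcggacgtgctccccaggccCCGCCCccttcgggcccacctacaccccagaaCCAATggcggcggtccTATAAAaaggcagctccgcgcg
Slc37a2: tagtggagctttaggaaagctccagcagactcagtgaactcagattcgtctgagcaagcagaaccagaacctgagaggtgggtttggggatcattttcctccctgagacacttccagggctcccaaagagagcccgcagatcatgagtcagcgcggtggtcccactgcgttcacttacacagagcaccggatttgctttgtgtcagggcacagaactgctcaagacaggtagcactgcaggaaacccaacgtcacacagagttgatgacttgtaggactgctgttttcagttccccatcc
The Slc2a1 window holds 2 GC boxes, a CCAAT box and a TATA box, and the Slc37a2 window holds no match to these letters. In the Slc2a1 window the GC boxes begin at bases 206 and 231, before the RefSeq start. The CCAAT and TATA matches begin at bases 263 and 279, after that start. Over 32851 RefSeq mouse windows of the same length, 35.7% held a GC box, 37.4% a CCAAT box and 13.6% a TATA box. RefSeq windows were matched for 90 of the 124 members, 124 windows in all, of which 74.2%, 37.1% and 5.65% held these motifs. A match is a description of the letters, not of a bound factor.

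Slc37a2 stood at 36.7, 21.9 and 33.6 TPM in the B2 libraries 1 to 3, at 51.2, 60.7 and 53.8 TPM in B1 and at 20.2, 17.4 and 18.3 TPM in B2B1. The 3 groups did not overlap, with every B1 library above every B2 library and every B2B1 library below. The log2 fold change was 0.85 ± 0.17 (SE) in B1 against B2 (limma adjusted p = 0.00267), -0.66 ± 0.17 in B2B1 against B2 (adjusted p = 0.00766) and -1.52 ± 0.17 in B2B1 against B1 (adjusted p = 0.000649).

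Slc2a1 stood at 55.0, 53.2 and 57.9 TPM in B2, at 65.5, 75.9 and 70.5 TPM in B1 and at 31.2, 45.5 and 36.7 TPM in B2B1. Again the B1 libraries were all above and the B2B1 libraries all below the B2 libraries. The difference between B2B1 and B1 was -0.90 ± 0.12 (SE, log2, adjusted p = 0.00167), so B2B1 had 0.535 of the B1 level. The other differences of Slc2a1 were smaller and less stable. In B1 against B2 it was 0.34 ± 0.12 (adjusted p = 0.0406), and the call was lost without B2 library 1, 2 or 3 (0.34, 0.32 and 0.38), without B2B1 library 3 (0.34) and without B1 library 2 or 3 (0.29 and 0.34). The call was also lost with the Xist covariate, with no filter on mean TPM and with no mean-variance trend. In B2B1 against B2 the difference was -0.55 ± 0.12 (adjusted p = 0.00354), and -0.33 (adjusted p = 0.0542) with median-of-ratios scaling.

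The remaining sugar carriers, apart from Slc37a4, had their highest mean in B2. Slc50a1, the mammalian SWEET sugar transporter and the most abundant member of the class, stood at 249, 239.8 and 252 TPM in B2, at 167, 165 and 159 TPM in B1 and at 125, 138 and 136 TPM in B2B1, with no overlap between groups. Its log2 fold change was -0.59 ± 0.06 (SE) in B1 against B2 (adjusted p = 3.49e-05), -0.89 ± 0.06 in B2B1 against B2 (adjusted p = 2.33e-06) and -0.30 ± 0.06 in B2B1 against B1 (adjusted p = 0.00758), the last not called with the Xist covariate (-0.26). Slc2a3, the high-affinity glucose transporter GLUT3 of neurons and leukocytes, had 34.2, 36.5 and 28.4 TPM in the B2 libraries, against 11.0, 10.1 and 8.57 TPM in B1 and 8.75, 10.8 and 7.81 TPM in B2B1. Its log2 fold changes against B2 were -1.64 ± 0.14 (adjusted p = 1.99e-05) and -1.75 ± 0.14 (adjusted p = 9.37e-06), and the peritoneal groups overlapped. Slc2a6, a lysosomal relative of the glucose transporters, stood at 21.1, 19.6 and 18.3 TPM in the B2 libraries, 2.88, 4.43 and 2.25 TPM in B1 and 4.98, 4.96 and 2.98 TPM in B2B1 (-2.34 ± 0.21 and -1.99 ± 0.21 against B2, adjusted p = 2.78e-05 and 5.24e-05). Slc37a1, another sugar phosphate exchanger, had group means of 19.0, 8.58 and 6.20 TPM in B2, B1 and B2B1. Its difference between B2B1 and B1 (-0.41 ± 0.10, adjusted p = 0.0193) was no longer called without B2B1 library 3 (-0.40) or without B1 library 1 (-0.32).

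The balance of the 2 glucose transporter transcripts is given as a description. On the per-length TPM scale, mean Slc2a1 and Slc2a3 levels were 55.3 and 33.0 TPM in B2, against 70.6 and 9.90 TPM in B1 and 37.8 and 9.13 TPM in B2B1. Slc37a4, the glucose 6-phosphate transporter of the endoplasmic reticulum, was chosen for mention after its values were seen: it was lowest in library 2 of each group, at 3.42 TPM in B2, 6.33 TPM in B2B1 and 6.55 TPM in B1, while the other 6 libraries were between 9.28 and 12.0 TPM. It was called in no comparison.

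**Figure D3:**
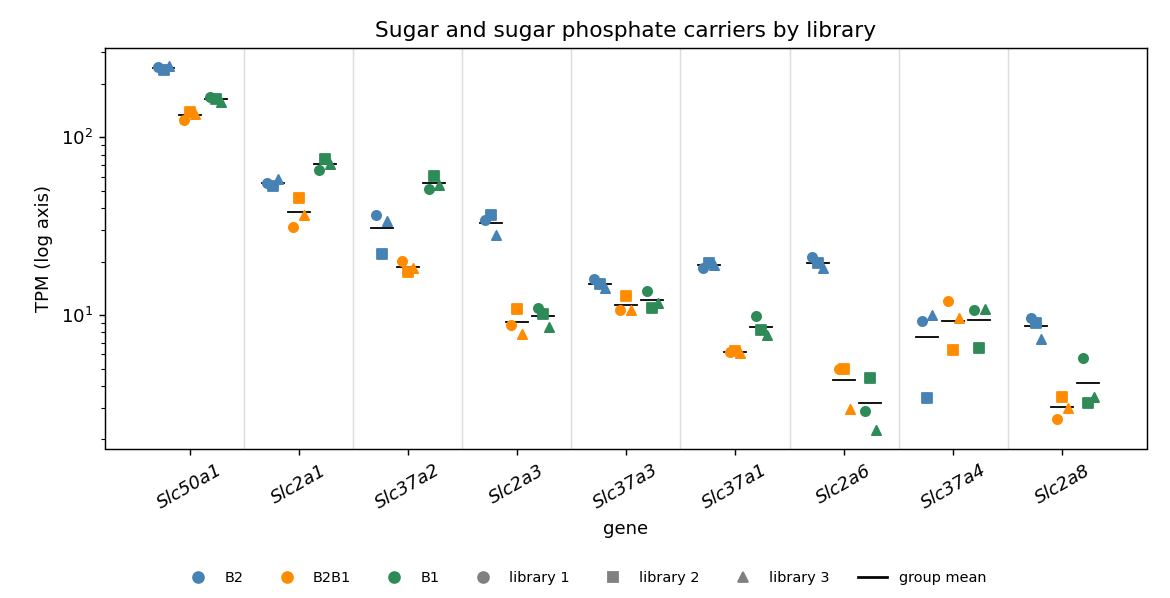
TPM on a log axis for the 9 sugar and sugar phosphate carriers in each library (colour for the group, marker shape for the library number), with black bars for group means. Slc2a1 and Slc37a2 have B1 above B2 and B2B1 below it, while Slc2a3 and Slc2a6 have both peritoneal groups far below B2.

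Amino acid and peptide carriers were called in both directions, as were all genes tested. Of 20 members (of 60 matching symbols), 5 were higher and 6 lower in B1 than in B2 (25% and 30%, beside 18% and 33.9% of all genes). In B2B1 against B2, 6 were higher and 8 lower (30% and 40%, beside 21% and 42%). In B2B1 against B1, 1 was higher and 4 were lower (5% and 20%, beside 6.93% and 12.1%). The class medians were -0.10, -0.19 and -0.19. The first changed sign with either other scaling (0.06 and 0.04) and the second with median-of-ratios scaling (0.03), so no direction is given for the class. With median-of-ratios scaling the higher and lower members numbered 5 and 3, 7 and 5, and 1 and 1.

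The largest difference of the class in B1 against B2 was that of Slc7a7, the light chain that exchanges cationic for neutral amino acids when bound to the heavy chain Slc3a2. Slc7a7 stood at 6.09, 6.02 and 4.71 TPM in B2, at 59.4, 71.5 and 66.8 TPM in B1 and at 44.0, 51.1 and 65.6 TPM in B2B1. Every peritoneal library was at least 7 times any B2 library, and B1 and B2B1 overlapped. That is a log2 fold change of 3.34 ± 0.15 (SE) in B1 against B2 (adjusted p = 3.76e-07), 3.03 ± 0.15 in B2B1 against B2 (adjusted p = 5.46e-07) and -0.31 ± 0.15 in B2B1 against B1 (adjusted p = 0.180). Slc7a7 (chr14:54369442-54417780, minus strand, GENCODE on GRCm38) overlaps Oxa1l on the opposite strand, and the kit and counting are not stated to keep strand, so reads of the pair may not be told apart. In all, 26 of the 124 members overlap another coding gene. They include Slc15a4, Slc16a6, Slc20a2, Slc23a1, Slc25a23 and Slc48a1, which are described below. The overlap is that of whole genes, introns included. Whether exons are shared was not checked, for Slc7a7 or the others, so the same limit may hold for only some of them.

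The heavy chain and the other light chains had smaller differences. Slc3a2 stood at 76.7, 64.3 and 68.9 TPM in B2, at 60.5, 69.0 and 65.9 TPM in B1 and at 60.2, 57.0 and 56.9 TPM in B2B1. Its difference in B2B1 against B2 (-0.26 ± 0.08, adjusted p = 0.0165) was not called without B2 library 1 (-0.19), with median-of-ratios scaling (-0.04) or with quantile normalization (-0.09). Slc7a5, the light chain that imports leucine and other large neutral amino acids, was called in no comparison: it stood at 12.5, 13.5 and 13.9 TPM in B2, 15.9, 15.9 and 15.5 TPM in B2B1, and 11.8, 32.2 and 17.7 TPM in B1, where library 2 was high. Slc7a6, a light chain related to Slc7a7, stood at 23.2, 20.9 and 23.5 TPM in B2, 16.0, 17.1 and 17.5 TPM in B2B1 and 11.4, 22.0 and 12.6 TPM in B1. Its difference in B1 against B2 (-0.58 ± 0.20, adjusted p = 0.0362) was lost without any 1 of the 3 B2 libraries (-0.56, -0.63 and -0.55) and without B1 library 1 or 3 (-0.41 and -0.48).

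Slc1a5, Slc38a2 and Slc43a2, carriers of neutral amino acids, were lower in B2B1 than in B2. Slc1a5, the sodium-dependent glutamine and neutral amino acid exchanger, was the most abundant amino acid carrier, with 273, 244 and 283 TPM in B2, 211, 200.4 and 202 TPM in B2B1 and 192, 251 and 215 TPM in B1. The log2 fold change was -0.38 ± 0.10 in B2B1 against B2 (adjusted p = 0.00723), which became -0.15 and was not called with median-of-ratios scaling. In B1 against B2 it was -0.29 ± 0.10 (adjusted p = 0.0325) and was lost without B2 library 1 or 3 (-0.27 and -0.24) or B1 library 1 or 3 (-0.20 and -0.28). Slc38a2, which imports small neutral amino acids with sodium, stood at 144, 118 and 135 TPM in B2, 52.9, 78.0 and 79.8 TPM in B2B1 and 82.6, 141 and 104 TPM in B1. It was lower in B2B1 than in B2 (-0.92 ± 0.21, adjusted p = 0.00406). Slc43a2, a facilitative carrier of large neutral amino acids, had group means of 37.2 TPM in B2, 21.1 TPM in B1 and 14.5 TPM in B2B1, with log2 fold changes of -0.80 ± 0.12 (adjusted p = 0.000662) and -1.31 ± 0.12 (adjusted p = 2.46e-05) against B2.

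The peptide carriers of family 15 went separate ways. Slc15a3, a lysosomal carrier of histidine and small peptides, stood at 39.9, 21.8 and 21.9 TPM in B2B1, against 9.47, 8.78 and 7.59 TPM in B2 and 6.94, 7.03 and 5.60 TPM in B1. All 3 B2B1 libraries were at least 2 times any other library, and B1 was below B2 without passing the test. The log2 fold change of Slc15a3 was 1.53 ± 0.22 (SE) in B2B1 against B2 (adjusted p = 0.000259) and 1.89 ± 0.22 in B2B1 against B1 (adjusted p = 0.000698). The B2B1 library highest in Slc15a3, library 1, was also the one highest in summed macrophage markers, and the part of those cells in the difference was not tested. Slc15a3 (chr19:10839727-10859362, plus strand) overlaps Tmem132a on the opposite strand.

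Slc15a4, the endolysosomal relative needed for endosomal Toll-like receptor responses, had group means of 118 ± 10.1 TPM in B2, 124 ± 17.1 TPM in B2B1 and 108 ± 8.46 TPM in B1 (SD, n = 3) and was called in no comparison. Slc15a2, the peptide carrier of the plasma membrane, stood at 38.7, 29.9 and 25.8 TPM in B2, 3.37, 0.399 and 7.76 TPM in B2B1, and 9.79, 0.562 and 14.6 TPM in B1. Every peritoneal library was below every B2 library, with library 2 lowest in both peritoneal groups. The log2 fold change was -3.09 ± 0.87 in B2B1 against B2 (adjusted p = 0.0126). In B1 against B2 it was -2.32 ± 0.87 (adjusted p = 0.0499) and was not called without any 1 of the B2 libraries (-2.17, -2.35 and -2.45), B2B1 library 1 (-2.32), B1 library 1 (-2.70) or B1 library 2 (-1.31). Nor was Slc15a2 called there with median-of-ratios scaling, quantile normalization or a smaller pseudocount. Slc36a4, a proton-independent amino acid carrier, went the other way, with 2.48, 2.74 and 1.78 TPM in the B2 libraries, 13.4, 9.63 and 11.3 TPM in B1 and 6.91, 7.43 and 8.39 TPM in B2B1 (1.90 ± 0.15 and 1.37 ± 0.15 against B2, adjusted p = 1.25e-05 and 6.37e-05).

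Carriers of inorganic ions were mostly lower in B2B1 than in B2. Of 14 members (of 54 matching symbols), 1 was higher and 8 lower in B1 than in B2 (7.14% and 57.1%). In B2B1 against B2, 2 were higher and 12 lower (14.3% and 85.7%). In B2B1 against B1, 1 was higher and 3 were lower (7.14% and 21.4%). The class medians were -0.33, -0.46 and -0.19 and stayed negative under both other scalings, but with median-of-ratios scaling 4 were lower in B1 than in B2 and 7 in B2B1 than in B2, and with quantile normalization 5 and 8. Summed over the class, B2 had 611 ± 21.9 TPM, B1 had 461 ± 34.0 TPM and B2B1 had 361 ± 14.2 TPM.

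The 2 phosphate importers of family 20 went in opposite directions. Slc20a1 stood at 70.0, 67.6 and 73.2 TPM in B2, at 14.7, 22.8 and 14.6 TPM in B1 and at 16.0, 16.5 and 17.2 TPM in B2B1. Slc20a2, its paralog with the same sodium and phosphate transport, stood at 12.3, 12.2 and 12.1 TPM in B2, at 44.9, 41.3 and 39.0 TPM in B1 and at 26.5, 33.6 and 28.4 TPM in B2B1. For both genes the peritoneal libraries did not overlap the B2 libraries, and Slc20a2 was the more abundant of the pair in every peritoneal library but in no B2 library.

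The log2 fold changes of Slc20a1 were -1.98 ± 0.15 (SE) in B1 against B2 (adjusted p = 7.93e-06) and -2.02 ± 0.15 in B2B1 against B2 (adjusted p = 5.34e-06). Those of Slc20a2 were 1.69 ± 0.09 (adjusted p = 1.36e-06) and 1.20 ± 0.09 (adjusted p = 7.71e-06). Slc20a2 was also lower in B2B1 than in B1 (-0.49 ± 0.09, adjusted p = 0.00827), while Slc20a1 was not called there (-0.04 ± 0.15, adjusted p = 0.891). Xpr1, the phosphate exporter, is not a carrier by name. It stood at a mean of 24.1 ± 0.786 TPM in B2, 15.4 ± 1.14 TPM in B1 and 11.9 ± 0.502 TPM in B2B1, and was lower in B1 (-0.61) and in B2B1 (-0.97) than in B2 and lower in B2B1 than in B1 (-0.35, adjusted p = 0.0150).

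Slc4a7, a sodium bicarbonate cotransporter that raises cell pH, stood at 66.8, 58.9 and 51.1 TPM in B2, at 21.7, 13.7 and 15.6 TPM in B1 and at 11.6, 12.7 and 11.9 TPM in B2B1. Its log2 fold changes against B2 were -1.75 ± 0.16 in B1 (adjusted p = 2.59e-05) and -2.19 ± 0.16 in B2B1 (adjusted p = 4.93e-06).

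The sodium proton exchangers of family 9 were lower by less than a factor of 2. Slc9a7, which works in the Golgi network, had group means of 78.0 ± 5.18 TPM in B2, 61.1 ± 7.49 TPM in B1 and 50.7 ± 0.844 TPM in B2B1. It was lower in B2B1 than in B2 (-0.61 ± 0.09, adjusted p = 0.000344, and -0.39 with median-of-ratios scaling). Its difference in B1 against B2 (-0.35 ± 0.09, adjusted p = 0.00976) was not called with median-of-ratios scaling (-0.20) or quantile normalization (-0.23). Slc26a11, a lysosomal anion carrier, had means of 18.7 ± 1.91, 8.10 ± 0.492 and 5.55 ± 1.16 TPM in B2, B1 and B2B1, with log2 fold changes against B2 of -1.11 ± 0.14 in B1 (adjusted p = 0.000204) and -1.60 ± 0.14 in B2B1 (adjusted p = 1.53e-05).

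Metal carriers held 21 of 32 matching symbols, most of them zinc carriers. Zinc enters the cytosol through family 39 (the ZIP proteins) and leaves it, into vesicles, the Golgi or the medium, through family 30 (the ZnT proteins). Higher and lower members numbered 4 and 6 in B1 against B2 (19.0% and 28.6%), 4 and 9 in B2B1 against B2 (19.0% and 42.9%), and 2 and 3 in B2B1 against B1 (9.52% and 14.3%). The class medians (-0.05, -0.16 and -0.09) were near those of all genes, and the first 2 were positive with median-of-ratios scaling (0.09 and 0.05), under which 7 were higher and 5 lower in B1 against B2, 6 and 6 in B2B1 against B2, and 3 and 2 in B2B1 against B1.

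Slc39a4, the ZIP zinc importer that intestinal cells use for dietary zinc, had the largest log2 fold change of all members in B2B1 against B2. It stood at 1.11, 1.21 and 1.20 TPM in B2, at 20.1, 16.5 and 17.6 TPM in B1 and at 24.5, 24.6 and 22.2 TPM in B2B1. The 3 groups did not overlap, and the B2 level was barely above the pseudocount of 1. Mean TPM of Slc39a4 was 15.4 times B2 in B1 and 20.3 times B2 in B2B1, and the log2 fold changes were 3.13 ± 0.09 (SE, adjusted p = 3.63e-08) and 3.51 ± 0.09 (adjusted p = 1.70e-08). The small difference between B2B1 and B1 (0.38 ± 0.09, adjusted p = 0.0242) was not called without B2B1 library 1 (0.36), B2B1 library 2 (0.36) or B1 library 3 (0.37). Slc39a4 lies at chr15:76612383-76617384 on the minus strand (GENCODE, GRCm38), with no overlapping coding gene.

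Slc39a11, a zinc carrier found in the nucleus and Golgi, was the other ZIP member past a factor of 2. It stood at 5.55, 6.72 and 6.12 TPM in B2, at 17.8, 19.9 and 14.1 TPM in B1 and at 20.6, 18.9 and 16.3 TPM in B2B1 (1.35 ± 0.14 and 1.46 ± 0.14 against B2, adjusted p = 5.23e-05 and 2.25e-05). Its locus overlaps Sstr2 and Cog1 on the opposite strand. Slc39a7, which releases zinc from the endoplasmic reticulum and is the most abundant metal carrier, was lower: 105, 88.2 and 106 TPM in B2, at 61.5, 71.9 and 70.1 TPM in B1 and at 62.5, 61.6 and 64.0 TPM in B2B1. Its log2 fold changes were -0.55 ± 0.09 (adjusted p = 0.00075) and -0.66 ± 0.09 (adjusted p = 0.000182), the latter -0.43 with median-of-ratios scaling.

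Among the ZnT exporters, Slc30a4 separated the peritoneal groups most. Slc30a4, which loads zinc into endosomal vesicles, stood at 9.69, 10.4 and 11.5 TPM in B2, at 7.45, 6.33 and 6.74 TPM in B1 and at 2.37, 2.45 and 2.29 TPM in B2B1, without overlap. It was lower in B1 than in B2 (-0.56 ± 0.10, adjusted p = 0.00166), in B2B1 than in B2 (-1.77 ± 0.10, adjusted p = 1.3e-06) and in B2B1 than in B1 (-1.22 ± 0.10, adjusted p = 0.000180). Slc30a5 and Slc30a7 both carry zinc into the secretory pathway. Slc30a5 had means of 87.3 ± 3.98 TPM in B2, 57.2 ± 1.16 TPM in B1 and 49.5 ± 0.352 TPM in B2B1 (-0.60 ± 0.05 and -0.80 ± 0.05 against B2, adjusted p = 2.53e-05 and 3.21e-06). Slc30a7 was instead highest in B1, with 21.2, 20.6 and 21.0 TPM against 18.3, 17.2 and 16.5 TPM in B2 and 15.1, 15.6 and 16.3 TPM in B2B1. The Slc30a7 difference was 0.26 ± 0.07 in B1 against B2 (adjusted p = 0.0120, and 0.41 with median-of-ratios scaling) and -0.40 ± 0.07 in B2B1 against B1 (adjusted p = 0.00529).

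Mt1, the zinc-binding metallothionein that zinc induces through the transcription factor Mtf1, was listed at 0, 0 and 0.475 TPM in B2, at 0.482, 0.762 and 0.758 TPM in B1 and at 5.03, 5.45 and 2.64 TPM in B2B1. It was higher in B2B1 than in B1 (1.65, adjusted p = 0.00296). Of magnesium carriers, Slc41a2 was lower in B2B1 (1.29, 0.977 and 0.721 TPM) than in B2 (8.74, 11.3 and 10.4 TPM), a log2 fold change of -2.48 ± 0.55 (adjusted p = 0.00372). Its B1 libraries were spread widely, at 5.49, 0.429 and 7.42 TPM.

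Nucleoside, nucleobase and nucleotide carriers numbered 5 of 9 matching symbols. In B1 against B2, 3 were higher and 1 lower, in B2B1 against B2 2 and 1, and in B2B1 against B1 2 and 2. The first median was 0.48, and the second, -0.19, turned to 0.03 with median-of-ratios scaling.

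Slc28a2 was lower and Slc29a3 higher in B2B1 than in either other group. Slc28a2, the sodium-coupled importer of purine nucleosides and the most abundant member of the class, stood at 213, 204 and 200.4 TPM in B2, at 159, 129.9 and 128 TPM in B1 and at 110.1, 99.1 and 99.3 TPM in B2B1. The groups did not overlap, and B2B1 had 0.499 of the B2 level (-1.0 ± 0.09, SE, adjusted p = 1.49e-05) and 0.741 of the B1 level (-0.42 ± 0.09, adjusted p = 0.0112). Slc29a3, the equilibrative nucleoside carrier of lysosomes, stood at 22.1, 24.5 and 21.0 TPM in B2, at 31.7, 27.4 and 36.7 TPM in B1 and at 60.7, 53.3 and 42.6 TPM in B2B1. It was higher in B2B1 than in B2 (1.17 ± 0.14, adjusted p = 0.000112) and than in B1 (0.69 ± 0.14, adjusted p = 0.0116). The Slc29a3 difference in B1 against B2 (0.48 ± 0.14, adjusted p = 0.0199) was lost without B2 library 1 (0.47), B2 library 3 (0.43) or B1 library 3 (0.37).

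Slc43a3, a facilitative carrier of purine nucleobases, stood at 2.99, 5.14 and 3.80 TPM in B2, at 14.1, 17.5 and 14.0 TPM in B1 and at 35.6, 29.9 and 23.2 TPM in B2B1, again without overlap. Its log2 fold change was 1.72 ± 0.19 in B1 against B2 (adjusted p = 9.34e-05), 2.62 ± 0.19 in B2B1 against B2 (adjusted p = 5.31e-06) and 0.90 ± 0.19 in B2B1 against B1 (adjusted p = 0.0129). Both Slc29a3 and Slc43a3 were highest in B2B1 library 1, the library with the most macrophage marker RNA, and the part of those cells in the result was not tested. Slc17a9, which loads ATP into secretory vesicles, was highest in B1, at 57.0, 78.3 and 60.9 TPM, against 42.7, 36.3 and 43.4 TPM in B2 and 31.4, 31.7 and 44.9 TPM in B2B1. With the Xist covariate the differences between B2B1 and B1 were 0.58 for Slc43a3, 0.49 for Slc29a3 and -0.44 for Slc28a2, and none of these was called. Slc17a9 was higher in B1 than in B2 (0.66 ± 0.16, adjusted p = 0.00781) and lower in B2B1 than in B1 (-0.85 ± 0.16, adjusted p = 0.00786).

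The 5 nucleotide sugar carriers of the Golgi (Slc35a1 to Slc35a5) differed by less than 0.5 on the log2 scale. Slc35a2, which imports UDP-galactose, had means of 27.8 ± 0.275 TPM in B2, 19.8 ± 1.84 TPM in B1 and 19.6 ± 1.01 TPM in B2B1 (-0.48 ± 0.08 in each comparison, adjusted p = 0.00101 and 0.000647). Slc35a3, the carrier of UDP-N-acetylglucosamine, was higher, at 24.1 ± 1.41, 31.0 ± 0.787 and 30.7 ± 1.93 TPM (0.35 ± 0.07 and 0.34 ± 0.07, adjusted p = 0.00314 and 0.00305). With median-of-ratios scaling the values in B2B1 against B2 were -0.27 for Slc35a2 and 0.56 for Slc35a3. Slc35a1, which imports CMP-sialic acid, was lower in B1 than in B2 (-0.33 ± 0.11, adjusted p = 0.0354), a call lost without B2 library 1 (-0.37), B2 library 2 (-0.21), B1 library 2 (-0.26) or B1 library 3 (-0.35). That call was also lost with median-of-ratios scaling, quantile normalization, no filter on mean TPM, library weights, a replicate block or the Xist covariate. None of the 5 was called between B2B1 and B1.

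Vitamin, cofactor and heme carriers held 7 of 13 matching symbols. In B1 against B2, 1 was higher and 2 lower, in B2B1 against B2 1 and 3, and none was called between B2B1 and B1. With median-of-ratios scaling 3 were higher and 1 lower in each comparison with B2, and 1 was higher in B2B1 than in B1. Slc48a1, which moves heme from lysosomes into the cytosol, stood at 20.7, 22.4 and 19.0 TPM in B2, at 42.2, 40.9 and 33.6 TPM in B1 and at 33.1, 42.2 and 34.5 TPM in B2B1 (0.87 ± 0.12 and 0.79 ± 0.12, adjusted p = 0.000317 and 0.000406). The sodium-coupled vitamin C importers differed from each other. Slc23a1 had means of 8.10 ± 0.999 TPM in B2, 5.53 ± 0.456 TPM in B1 and 4.12 ± 0.619 TPM in B2B1 and was lower in B2B1 than in B2 (-0.83 ± 0.13, adjusted p = 0.000483). Slc23a2 had means of 19.6 ± 0.323, 24.1 ± 2.79 and 24.1 ± 3.96 TPM and was called in no comparison. Slc52a2, a riboflavin importer, had means of 20.6 ± 1.18, 13.4 ± 1.25 and 16.1 ± 1.25 TPM in the same order and was lower in B1 than in B2 (-0.58 ± 0.09, adjusted p = 0.000791).

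Carriers of other organic solutes held 16 of 90 matching symbols, with 5 higher and 5 lower in B1 than in B2 (31.25% each). There were 5 and 6 in B2B1 against B2 (31.25% and 37.5%), and 1 and 5 in B2B1 against B1 (6.25% and 31.25%). Their summed level was 475 ± 16.6 TPM in B2, 291 ± 3.05 TPM in B1 and 231 ± 4.66 TPM in B2B1. Much of that lay in Slc44a2, a choline transporter-like protein that was 46.2% of the class over the 9 libraries. It stood at 257, 273 and 271 TPM in B2, at 112, 116 and 109 TPM in B1 and at 69.4, 91.0 and 82.3 TPM in B2B1. The groups did not overlap, and the log2 fold changes were -1.24 ± 0.09 in B1 against B2 (adjusted p = 7e-06), -1.72 ± 0.09 in B2B1 against B2 (adjusted p = 8.26e-07) and -0.48 ± 0.09 in B2B1 against B1 (adjusted p = 0.00786).

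The monocarboxylate carriers of family 16 had unlike patterns. Slc16a6 stood at 46.5, 44.7 and 40.7 TPM in B2, at 16.8, 20.0 and 15.9 TPM in B1 and at 7.45, 6.11 and 7.44 TPM in B2B1. The B1 mean was 0.399 of the B2 mean and the B2B1 mean 0.399 of the B1 mean. The log2 fold changes were -1.28 ± 0.11 (adjusted p = 1.9e-05), -2.49 ± 0.11 (adjusted p = 2.89e-07) and, in B2B1 against B1, -1.21 ± 0.11 (adjusted p = 0.000241). Slc16a7, a high-affinity pyruvate and lactate importer, was highest in B1, at 13.8, 10.9 and 13.3 TPM, against 7.26, 9.83 and 7.45 TPM in B2 and 7.04, 5.47 and 5.99 TPM in B2B1. It was higher in B1 than in B2 (0.58 ± 0.14, adjusted p = 0.00783) and lower in B2B1 than in B1 (-0.93 ± 0.14, adjusted p = 0.00289). Bsg, the chaperone of the lactate carriers Slc16a1 and Slc16a3, stood at 112 ± 7.29 TPM in B2, 124 ± 6.21 TPM in B1 and 188 ± 13.2 TPM in B2B1 and was higher in B2B1 than in B1 (0.60, adjusted p = 0.000923).

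At low levels, Slc27a3, an acyl-CoA synthetase of the fatty acid transport family, had 2.58, 2.28 and 2.36 TPM in the B2 libraries, 17.3, 9.29 and 22.5 TPM in B1 and 6.07, 5.65 and 8.65 TPM in B2B1. Its log2 fold changes against B2 were 2.27 ± 0.27 (adjusted p = 0.00015) and 1.17 ± 0.27 (adjusted p = 0.00488). Slc27a3 was lower in B2B1 than in B1 (-1.10 ± 0.27, adjusted p = 0.0248), a call lost without B2B1 library 1 (-1.04), B2B1 library 2 (-0.99), B1 library 1 (-1.02) or B1 library 3 (-0.84). Slc14a1, the urea transporter of red cells and kidney, stood at 12.9, 26.5 and 12.1 TPM in B2, at 4.48, 3.12 and 1.49 TPM in B1 and at 0.596, 1.01 and 0.723 TPM in B2B1. It was lower than B2 in both peritoneal groups (-2.16 ± 0.34 and -3.28 ± 0.34, adjusted p = 0.000704 and 4.07e-05). Summed erythroid markers were between 3.09 and 18.1 TPM in all libraries, highest in B1 library 2 and B2 library 2, and their part was not tested.

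Mitochondrial carriers, the Slc25 family, were the largest class, with 27 of 44 matching symbols. The class includes Slc25a17, which works in peroxisomes, and Slc25a46, which sits in the outer membrane. In B1 against B2, 3 were higher and 8 lower (11.1% and 29.6%), in B2B1 against B2 8 and 8 (29.6% each), and in B2B1 against B1 3 and 2 (11.1% and 7.41%). The class medians were near 0 (-0.00, -0.07 and 0.02), and they were 0.15, 0.15 and 0.09 with median-of-ratios scaling. That scaling turned the balance of calls in B1 against B2, to 12 higher and 6 lower, and gave 11 and 7 in B2B1 against B2, and 5 and 2 in B2B1 against B1. Quantile normalization gave 8 and 7, 9 and 8, and 2 and 2. The summed level was 1749 ± 13.6 TPM in B2, 1773 ± 87.7 TPM in B1 and 1992 ± 45.2 TPM in B2B1.

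The carriers of oxidative phosphorylation were the most abundant members of the class. Slc25a3, which imports phosphate for ATP synthesis, had means of 414 ± 11.6 TPM in B2, 412 ± 13.6 TPM in B1 and 453 ± 7.22 TPM in B2B1. Its difference of 0.13 ± 0.05 in B2B1 against B2 (adjusted p = 0.0402) was lost when any 1 B2 library (0.11, 0.14 and 0.15) or B2B1 library (0.14, 0.12 and 0.14) was left out, and was 0.36 with median-of-ratios scaling. That difference was also not called with quantile normalization or with the Xist covariate. The ADP/ATP exchangers were higher in B2B1 than in B2. Slc25a4 stood at 113, 133 and 116 TPM in B2, at 227, 194 and 179 TPM in B1 and at 239, 255 and 241 TPM in B2B1. For Slc25a4 the difference was 0.72 ± 0.10 in B1 against B2 (adjusted p = 0.000247) and 1.02 ± 0.10 in B2B1 against B2 (adjusted p = 2.12e-05). Slc25a5, its X-linked paralog, stood at 353, 364 and 362 TPM in B2, at 396, 437 and 369 TPM in B1 and at 471, 490.5 and 459 TPM in B2B1. It was higher in B2B1 than in B2 (0.40 ± 0.07, adjusted p = 0.000754, and 0.62 with median-of-ratios scaling). Reads of such close paralogs, and of the annotated pseudogene of Slc25a5, may be split between them.

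Slc25a37 and Slc25a23 were low in B2B1 alone or most of all. Slc25a37, the mitochondrial iron importer mitoferrin 1, stood at 149.7, 147 and 144 TPM in B2, at 109, 90.6 and 103 TPM in B1 and at 42.8, 41.9 and 37.5 TPM in B2B1. The groups did not overlap, and the log2 fold changes were -0.54 ± 0.08 in B1 against B2 (adjusted p = 0.000495), -1.83 ± 0.08 in B2B1 against B2 (adjusted p = 2.76e-07) and -1.29 ± 0.08 in B2B1 against B1 (adjusted p = 5.55e-05). Slc25a37 is abundant in red cell precursors. Of the erythroid markers, Gata1 was at 0 in every library, Hba-a1 was at 4.01, 5.47 and 0.493 TPM in B2 and 2.32, 0.257 and 1.60 TPM in B2B1, and Ermap was at 3.41 to 4.10 TPM in B2 and at most 2.16 TPM in B2B1, where it was called lower than in B2. Their part in the result was not tested.

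Slc25a23 and Slc25a24 are both calcium-regulated exchangers of ATP-Mg for phosphate, and in B2B1 against B2 they went in opposite directions. Slc25a23 stood at 11.0, 10.5 and 11.1 TPM in B2, at 12.6, 11.1 and 11.6 TPM in B1 and at 3.47, 4.72 and 5.22 TPM in B2B1. It was lower in B2B1 than in B2 (-1.12 ± 0.13, adjusted p = 6.66e-05) and than in B1 (-1.24 ± 0.13, adjusted p = 0.000429), and was not called in B1 against B2 (0.11 ± 0.13, adjusted p = 0.484). Slc25a24 stood at 5.49, 3.91 and 4.44 TPM in B2, at 11.7, 8.11 and 15.8 TPM in B1 and at 16.8, 8.94 and 12.6 TPM in B2B1. It was higher in B1 (1.16 ± 0.26, adjusted p = 0.00489) and in B2B1 (1.27 ± 0.26, adjusted p = 0.00236) than in B2, and was not called in B2B1 against B1 (0.10 ± 0.26, adjusted p = 0.815). Its highest value was in B2B1 library 1, the library with the most macrophage marker RNA, whose part was not tested.

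**Figure D4:**
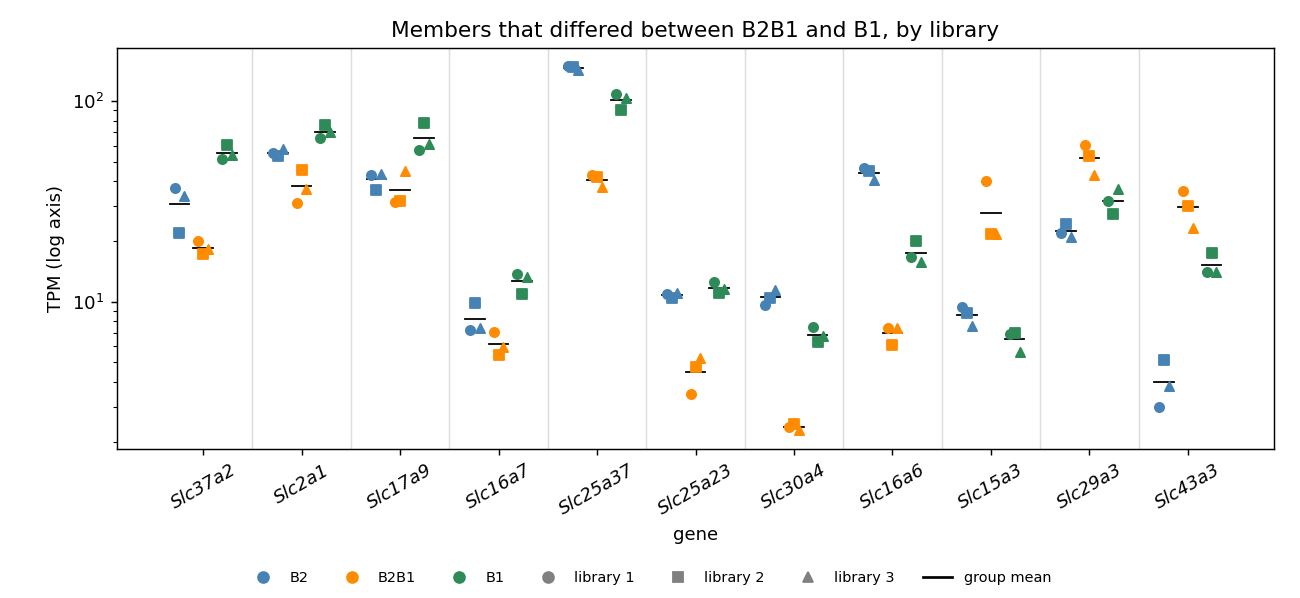
TPM on a log axis for 11 members that were called between B2B1 and B1, in each library, with black bars for group means. Slc37a2, Slc2a1, Slc17a9, Slc16a7, Slc25a37, Slc25a23, Slc30a4 and Slc16a6 have B2B1 below B1, and Slc15a3, Slc29a3 and Slc43a3 have it above.

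B1 library 2 stood apart from the other B1 libraries in several members. In it, 11 members were at least 0.5 log2 above the mean of the other 2 B1 libraries and 5 at least as far below it. The other libraries, set against their own groups in the same way, had 0 to 5 in either direction. The 11 were Slc7a5, Slc29a1, Slc16a1, Slc7a6, Slc25a15, Slc25a22, Slc19a1, Slc25a25, Slc2a6, Slc20a1 and Slc38a2, chosen for mention after their values were seen, and they include importers of leucine, nucleosides, lactate, folate and glutamine. Slc29a1, the equilibrative nucleoside carrier of the plasma membrane, stood at 13.8, 27.0 and 13.9 TPM in B1, against 13.5 to 16.5 TPM in B2. Slc16a1, a lactate carrier, stood at 5.99, 13.2 and 7.53 TPM, and Slc19a1, the folate carrier, at 13.6, 23.1 and 14.8 TPM. The 5 lower ones were Slc15a2, Slc41a2, Slc27a3, Slc25a24 and Slc37a4. A list of 20 cell cycle genes, added after these values were seen, summed to 254, 489 and 258 TPM in the B1 libraries, 326 to 336 TPM in B2 and 514, 385 and 351 TPM in B2B1. Its part in these values was not tested.

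**Figure D5:**
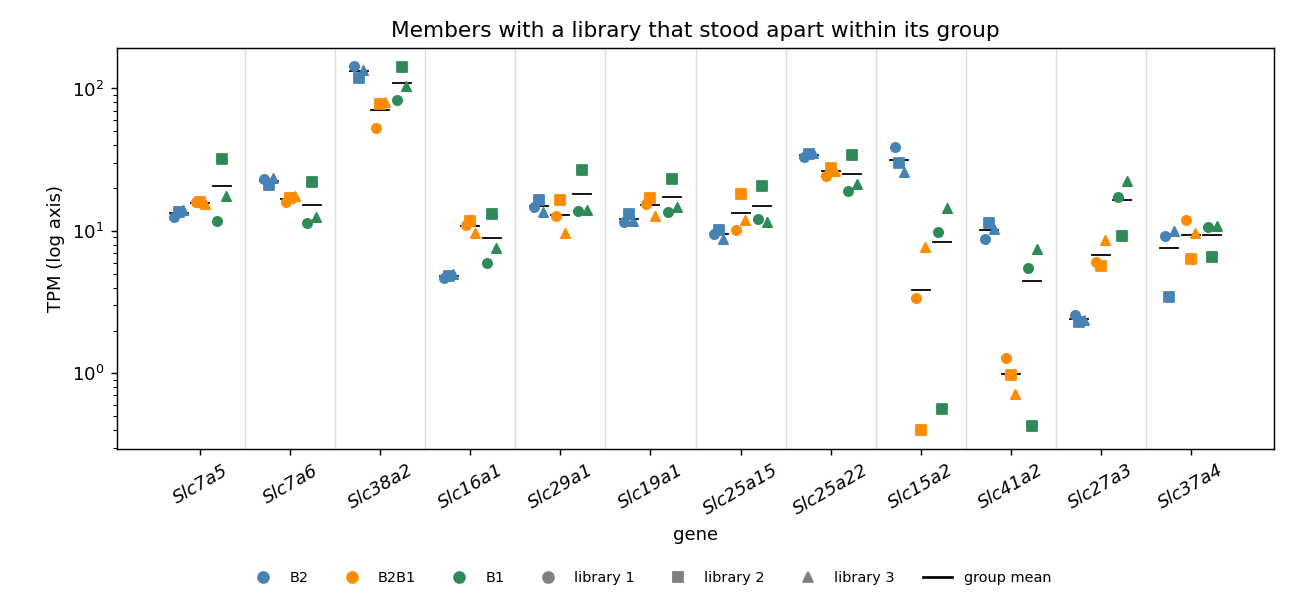
TPM on a log axis for 12 members with a library that stood apart within its group. B1 library 2 (green square) is the highest B1 library for the first 8 genes and the lowest for Slc15a2, Slc41a2, Slc27a3 and Slc37a4, and library 2 is the lowest of every group for Slc37a4.

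Genes that work with the carriers were read from 4 lists of 15 genes. The shares of all genes tested to set beside their counts are 18% higher and 33.9% lower in B1 against B2, 21% and 42% in B2B1 against B2, and 6.93% and 12.1% in B2B1 against B1. Of 14 tested partner proteins and gradient pumps, 7 were higher and 1 lower in B1 than in B2, 9 and 3 in B2B1 against B2, and 3 and 1 in B2B1 against B1. Cd44, which stabilizes the cystine carrier at the cell surface, had means of 27.1 TPM in B2, 176 TPM in B1 and 154 TPM in B2B1 (2.64 and 2.45 against B2, adjusted p = 3.03e-06 and 3.57e-06). That carrier, Slc7a11, is not a member, nor is it among the 40 carriers with a mean between 1 and 5 TPM. Emb, a chaperone of lactate carriers related to Bsg, had means of 5.25, 29.0 and 21.3 TPM (2.27 and 1.85, adjusted p = 8.72e-06 and 2.11e-05). The lone gene lower in B1 was Rraga, a GTPase that relays lysosomal amino acid levels to mTORC1, at 116, 63.0 and 75.0 TPM.

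Of 14 mitochondrial carriers and channels not named Slc, 7 were higher and 4 lower in each comparison with B2, and 2 and 2 in B2B1 against B1. Ucp2, an uncoupling protein of the Slc25 fold, had means of 593 TPM in B2, 1103 TPM in B1 and 844 TPM in B2B1, and was lower in B2B1 than in B1 (-0.38, adjusted p = 0.0236). Sfxn3, a mitochondrial serine carrier, had means of 39.5, 114 and 140 TPM in the same order (1.49 and 1.8 against B2, adjusted p = 2.05e-05 and 4.79e-06). Of 10 tested carriers outside the symbol rule, 1 was higher and 4 lower in B1 than in B2, 2 and 4 in B2B1 against B2, and 0 and 1, Xpr1, in B2B1 against B1. With median-of-ratios scaling these counts were 4 and 3, 4 and 3, and 1 and 1, and those of the mitochondrial carriers and channels were 8 and 2, 10 and 3, and 4 and 1. Mfsd12, a lysosomal cysteine importer, was higher in both peritoneal groups (7.15, 21.5 and 26.6 TPM in B2, B1 and B2B1).

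Of 14 tested regulators of transporter genes, 1 was higher and 6 lower in B1 than in B2, 4 and 6 in B2B1 against B2, and 2 and 0 in B2B1 against B1. Myc, which activates many glutamine and glucose carriers, was the lone one higher in B1, at 67.1, 196 and 116 TPM in B2, B1 and B2B1. Tfeb, the transcription factor of lysosomal genes, was lower in both (87.1, 52.7 and 48.6 TPM, log2 fold changes of -0.72 and -0.83, adjusted p = 3.24e-05 and 9.5e-06). The 2 genes called between B2B1 and B1 were Mt1, described above with the zinc carriers, and Hk2, the hexokinase that traps imported glucose, at 3.04 TPM in B2, 5.03 TPM in B1 and 11.1 TPM in B2B1 (1.07 in B2B1 against B1, adjusted p = 0.0212).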

How the data were processed

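PolyA RNA libraries of 3 B2, 3 B1 and 3 B2B1 samples were analysed. The authors deposited 1 table of TPM values per gene and library. CASAVA 1.8.2, kallisto and build mm10 are named in the submitters' processing notes, while the sources used here do not give the transcript set, kallisto's version or its strand setting. TPM is compositional and keeps no depth, so no counting interval can be given.

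Columns were matched to samples by title. Values were modelled as log2(TPM + 1) with limma 3.58.1 in R 4.3.3 (empirical Bayes with a mean-variance trend) over the 11099 genes with a mean of at least 1 TPM. The 9 libraries were fitted in 1 model with 3 contrasts, and p-values were adjusted by Benjamini-Hochberg within each contrast. The procedure was also run on simulated data with independent noise and few changed genes. That setting differs from these data, where many genes were called and the scaling matters, so the simulation does not vouch for the calls. Groups that do not overlap in 3 against 3 libraries reach an exact permutation p of no less than 0.1, so none is given. The members, gene lists and substrate classes were chosen with earlier results of these data known.

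Genes named per class were the 3 most abundant, the 4 with the largest called change among groups without overlap, the 2 with the smallest adjusted p between B2B1 and B1, and the partners of Slc3a2; for the other lists, the called genes with the smallest adjusted p. Other named genes were chosen after their values were seen. For 2 members, values are not reported here, though both are in the counts and sums. Alternatives covered scaling, pseudocount, filter, variance model, library weights, a replicate block, an Xist covariate and left-out libraries. Gene positions are from GENCODE on GRCm38 and promoters from RefSeq (GRCm38.p6).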

Additional observations from a re-analysis of the deposited data

How the results depend on the processing

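The counts of members called in B1 against B2 and B2B1 against B2 stayed within 1.5 times the main count under every setting except 1: with median-of-ratios scaling 40 members were higher in B1 than in B2, in place of 25. The counts in B2B1 against B1 were less stable. The 10 higher members became 6 with no filter on mean TPM, 2 with Xist presence as a covariate and 5 when only the 2 groups were fitted. The 23 lower members became 12 with the Xist covariate and 14 when only the 2 groups were fitted. The cause was not tested, other than that fewer libraries enter the last fit. Leaving out 1 library at a time gave 20 to 27 higher and 36 to 45 lower members in B1 against B2, 25 to 29 and 49 to 61 in B2B1 against B2, and 5 to 15 and 15 to 24 in B2B1 against B1. With the Xist covariate 19 of the 33 calls in B2B1 against B1 were lost. Those lost include Slc43a3 (0.58), Slc28a2 (-0.44), Slc50a1 (-0.26), Slc29a3 (0.49), Slc37a1 (-0.44), Slc39a4 (0.32), Slc43a2 (-0.58) and Slc27a3 (-0.91). Slc36a4, Slc25a5, Slc26a11, Slc30a5 and Slc14a1, also described above, were no longer called there either. The value of Slc25a3 in B1 against B2, -0.00, turned to 0.15 with median-of-ratios scaling. Of 57 named members in 3 comparisons, 115 of 171 differences were called, and 28 of these lost the call under at least 1 of 21 settings.

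No pairing of the libraries by replicate number was seen. Deviations from the group means correlated between -0.06 and 0.12 for libraries with the same number, and 5 of 18 best matches had the library's own number. With so few libraries per group, these values cannot decide whether libraries of the same number shared a batch or handling. With the replicate number as a block, 28 members were higher and 41 lower in B1 against B2, 28 and 56 in B2B1 against B2, and 9 and 18 in B2B1 against B1. TPM values carry no depth, so how far depth limits the low members is unknown.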

Other observations

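Of the 40 carriers with a mean between 1 and 5 TPM, which are not members, 4 were higher and 13 lower in B1 than in B2, 6 and 22 in B2B1 against B2, and 2 and 4 in B2B1 against B1 (limma, adjusted p under 0.05). Among all genes tested the shares were 18% and 33.9%, 21% and 42%, and 6.93% and 12.1%. A threshold of 10 TPM in place of 5 would have given 97 members, and one of 1 TPM would have given 164. Other promoter motifs were counted in the same RefSeq windows, on both strands. The metal response element (TGCACNC or TGCGCNC) was in 36.3% of the 124 windows of members and 25.7% of all 32851 windows, the E-box (CACGTG) in 12.9% and 7.15%, and the amino acid response element (TGATGNAA) in 2.42% and 3.97%. An E-box and the other motifs can overlap, several windows can belong to 1 gene, and no test was made of these shares.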
